A study of Mus musculus with 8 samples.

Results

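Imprinted genes are expressed mainly from the copy inherited from 1 parent, and a list of 45 such mouse genes was followed in embryonic stem cells (ESCs) and embryoid bodies (EBs) with and without a knockout of Zfp462. The list was matched by symbol to the 55401 genes of the count table, and all 45 were found. The 43 genes with at least 10 counts over the 8 libraries were kept. Igf2 and Kcnq1, with 5 and 7 counts, fell under that minimum. The 45 genes lie in 21 imprinted clusters or loci, 9 of which hold a single gene of the list. Of the 43, 41 had enough counts to be tested between groups, while Kcnk9 (14 counts) and Dcn (50 counts) are given as levels only.

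All cells were of the mouse ESC line R1, and Zfp462 encodes a zinc finger protein. The 4 groups were wild-type control ESCs, Zfp462 knockout ESCs, control EBs and knockout EBs. ESCs were taken at day 0 from serum medium with LIF, a cytokine that maintains undifferentiated cells. EBs are aggregates in which ESCs differentiate once they are grown in suspension, here for 3 days. The study set out to see what the loss of Zfp462 does to self-renewal and differentiation. Each group had 2 poly(A)-selected libraries, numbered 1 and 2 by the replicate number of the label. The knockout cells were stable lines; the number of clones, the edit made and the parent-of-origin state of the R1 imprints were not given in the sources used here. A difference between knockout and control cells therefore cannot be told apart from one between the lines or clones used. Nothing in the labels says that the replicates came from separate cultures. A p-value therefore covers no more than the spread between the 2 samples of a group, estimated over all 4 groups together. That spread may be technical.

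Imprinted clusters are governed by control regions whose DNA is methylated in either the egg or the sperm and which keep that mark through the erasure of methylation in the early embryo. The zinc finger protein ZFP57 is known to bind a methylated hexamer in these regions and to recruit TRIM28, the histone methyltransferase SETDB1 and DNA methyltransferases. Many imprinted genes act on fetal growth, the placenta, metabolism or the nervous system. RNA counts add both parental copies together, so the levels below do not show which copy was read. The allele named for a gene is its usual expressed allele as background.

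Start regions of the list were read from RefSeq to show the sequence context in which these genes are transcribed (build GRCm38.p6, the assembly of mm10). The table matched 35 of the 45 genes, with 55 windows of 300 bases, each running from 250 bases before a start to 50 after it. The ZFP57 hexamer TGCCGC, searched on both strands (GCGGCA on the other), lay in 12 of the 55 windows (21.8%), beside 11.6% of all 32851 windows. By gene it lay in 11 of 35 (31.4%), beside 13.1% of all genes of the table. Windows with the hexamer were rich in CpG, with a median of 24 CpG against 7 in all windows and 13 in the windows of the list, so the 2 shares are not matched for base composition. Nor are they matched for windows per gene, with 55 windows for 35 genes of the list and 32851 for all 27025 genes. Overlapping windows were each counted, such as those of Mest that start at chr6:30737800 and chr6:30737803. The 11 genes were Zdbf2, Mcts2, Nnat, Mest, Copg2, Zim1, Snrpn, Igf2, Plagl1, Grb10 and Meg3. A match of letters is neither a bound site nor a methylated one. The 4 stretches shown are the window with the most hexamers (Zdbf2), a window with 2 (Mest), that of a gene of the list that rose in knockout ESCs (Plagl1), and the stretch from the start of Peg3 to that of Usp29, a pair read in opposite directions of which Peg3 rose in the knockout at both stages and Usp29 passed neither knockout test. Capitals mark the hexamer on either strand.
Zdbf2: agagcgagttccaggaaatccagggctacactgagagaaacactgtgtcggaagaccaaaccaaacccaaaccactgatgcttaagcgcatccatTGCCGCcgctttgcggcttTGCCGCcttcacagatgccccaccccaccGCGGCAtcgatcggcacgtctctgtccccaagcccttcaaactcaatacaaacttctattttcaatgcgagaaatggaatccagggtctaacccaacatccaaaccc
Mest: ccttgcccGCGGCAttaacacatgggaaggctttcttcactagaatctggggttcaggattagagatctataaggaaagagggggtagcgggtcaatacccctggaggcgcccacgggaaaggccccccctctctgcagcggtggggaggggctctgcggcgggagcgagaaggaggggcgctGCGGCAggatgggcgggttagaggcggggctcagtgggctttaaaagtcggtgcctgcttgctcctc
Plagl1: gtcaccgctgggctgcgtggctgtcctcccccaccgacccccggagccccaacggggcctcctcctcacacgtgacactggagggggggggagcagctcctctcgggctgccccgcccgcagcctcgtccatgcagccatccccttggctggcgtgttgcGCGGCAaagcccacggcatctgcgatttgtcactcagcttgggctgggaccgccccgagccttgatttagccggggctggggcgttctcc
Peg3-Usp29: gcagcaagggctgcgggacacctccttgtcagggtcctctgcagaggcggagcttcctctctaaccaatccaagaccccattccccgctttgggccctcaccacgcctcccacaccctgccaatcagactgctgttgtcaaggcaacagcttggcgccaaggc
The Zdbf2 stretch is chr1:63200108-63200357 (plus strand) and holds 3 hexamers, a number reached by 0.234% of all windows. It was picked for that number, so the share is no test of it. Its start lies upstream of the span that was counted as Zdbf2, and the window at the start of that span (chr1:63273019-63273318) holds 0. The Mest stretch is chr6:30737800-30738049 (plus strand) and holds 2 hexamers, and 1.53% of all windows hold 2 or more. The Plagl1 stretch is chr10:13090582-13090831 (plus strand) and holds 1. The stretch between Peg3 and Usp29 is chr7:6730420-6730582 (plus strand), 163 bases that hold none.

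Library totals ranged from 12119763 to 16228426 counts, and 17125 genes were tested. Levels are given as CPM (counts scaled to a common, composition-corrected library size) or, between genes, as RPKM (CPM per kilobase of exon). Zfp462 itself read 183 and 197 CPM in ESCs of the control and 104 and 107 CPM in those of the knockout (log2 change -0.85 ± 0.10, adjusted p = 0.000366), and in EBs 153 and 130.3 CPM without and 102 and 102 CPM with the knockout (-0.47 ± 0.10, adjusted p = 0.0207, both by edgeR's quasi-likelihood test with Benjamini-Hochberg adjustment, as are all adjusted p-values below). Changes are log2 estimates ± SE, and a gene is called, or said to have risen or fallen, at an adjusted p below 0.05. In EBs Zfp462 missed the threshold without control EB library 1 (0.212), knockout EB library 1 (0.158) or knockout EB library 2 (0.116). Knockout ESC replicate 2 had a trend with GC content, as the 10% of genes highest in GC lay at a median of -0.54 on the log2 scale around the mean of the libraries. Knockout EB replicate 1 held liver transcripts, with 2716 CPM summed over 30 adult liver markers against 65.9 to 116 CPM in the other 7 libraries. The 10 ESC markers summed to 4937 and 4976 CPM in control ESCs, 3821 and 3617 in knockout ESCs, 3019 and 2879 in control EBs and 2924 and 2878 in knockout EBs, and none was at 0 in any group.

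Levels per length spanned several orders of magnitude within the list. In control ESCs the highest mean was that of Peg10, a gene derived from a retrotransposon and needed by the placenta, at 131 ± 7.18 RPKM (SD, n = 2 as for all group values here). H19, a long non-coding RNA, followed at 66.1 ± 3.27 RPKM and Slc38a4, an amino acid transporter, at 62.3 ± 0.606 RPKM, and the libraries of these neighbours overlapped neither with each other nor with Peg10. Snrpn, a splicing protein gene, had 39.5 ± 0.0578 RPKM. Impact, a gene of the amino acid starvation response, had 38.3 ± 0.569 RPKM, and its libraries lay below those of Snrpn. The non-coding RNA Meg3 had 32.8 ± 3.66 RPKM and overlapped with Mcts2, a retrogene inside H13, at 30.3 ± 1.11 RPKM. At the other end were the antisense RNA Airn at 0.0972 ± 0.0129 RPKM, Asb4 at 0.153 ± 0.0704 RPKM and the antisense RNA Kcnq1ot1 at 0.163 ± 0.000681 RPKM, spread over a counted length of 93092 bases. Poly(A) selection and the unstated handling of introns bear on such long nuclear RNAs, and their part in these levels was not tested. The potassium channel gene Kcnk9 had 0 counts in all 4 ESC libraries and 2 to 5 in each EB library. Dcn, the proteoglycan decorin, had 0 to 8 counts in 7 libraries and 30 in knockout EB library 1, the library with liver transcripts.

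**Figure D1:**
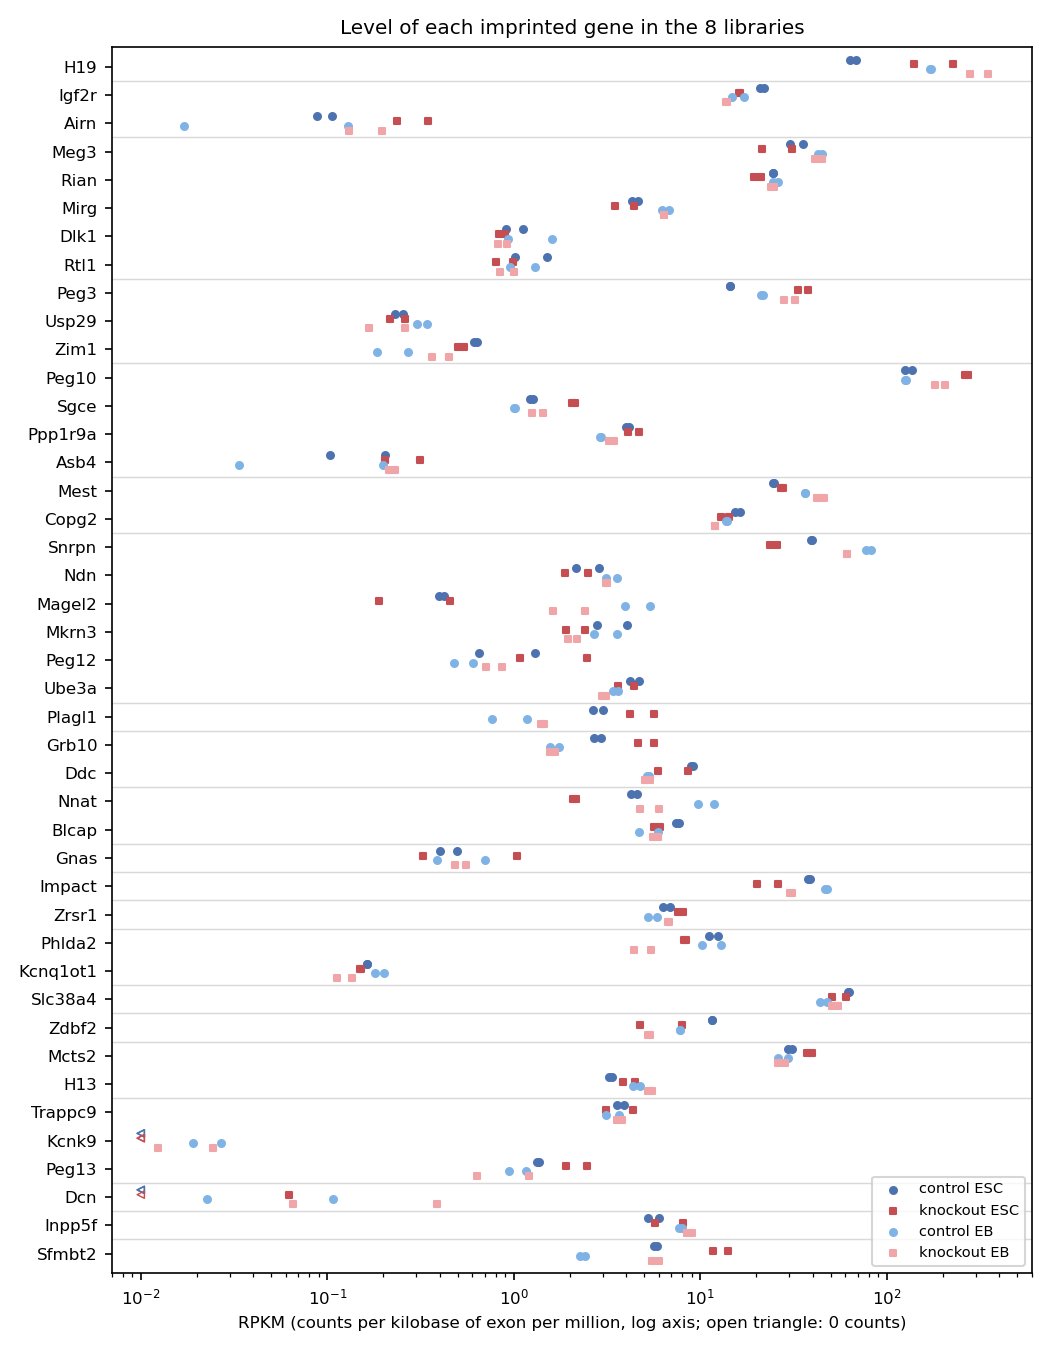
Level of each of the 43 genes in the 8 libraries, in RPKM on a log axis, with grey lines between clusters; circles are control, squares knockout, dark symbols ESCs and pale symbols EBs, and open triangles at the left edge stand for libraries at 0 counts. Peg10 and H19 lie at the right, and Airn, Asb4 and Kcnq1ot1 at the left.

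In ESCs genes of the list differed between knockout and control in both directions. H19, Peg3, Peg10, Sgce, Plagl1, Grb10 and Sfmbt2 rose, and Igf2r, Rian, Snrpn, Nnat, Impact and Zdbf2 fell. These 13 of 41 make 31.7%, beside 14.5% of all genes tested. The list was chosen with earlier results of these data known, so the 2 shares are no test of imprinted genes as a class. Among 24 tested imprinted genes outside the list the share was 4.17%. Of the 41, 7 rose, beside 1421 of all 17125 genes (8.30%), and 6 fell, beside 1062 of 17125 (6.20%). The genes of the list were also better counted than the rest, with a median mean level of 28.8 CPM against 14.9 CPM. The median log2 change of the 41 was -0.11, against -0.03 over all genes, and the median absolute change was 0.37 against 0.28. Genes usually read from the paternal copy numbered 5 higher and 4 lower of 24, and those read from the maternal copy 2 higher and 2 lower of 15. In day 3 EBs the knockout contrast called 9 of 41 (22.0%, beside 6.80% of all genes). H19, Peg3, Peg10 and Sfmbt2 rose (4 of 41, beside 814 of all 17125 genes, 4.75%). Snrpn, Magel2, Nnat, Impact and Phlda2 fell (5 of 41, beside 350 of 17125, 2.04%). The median log2 change of the 41 in EBs was -0.03, against 0.00 over all genes. The ESC and EB contrasts use separate libraries, and 7 genes were called in both, 4 higher and 3 lower, with none in opposite directions. These 7 are 53.8% of the ESC calls and 77.8% of the EB calls. Over all genes tested, 750 were called in both, 540 higher, 194 lower and 16 in opposite directions, which is 30.2% of the ESC calls and 64.4% of the EB calls. The 2 pairs of shares were not tested against each other.

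Markers of ESCs and of other cell types differed between the same groups. Of the 10 ESC markers, 5 were lower and 0 higher in knockout ESCs, and 3 were higher and 0 lower in knockout EBs, and their sum, given above, was lower in both knockout ESC libraries than in both control ESC libraries. All 23 extraembryonic endoderm markers were tested, and 20 were higher in knockout ESCs and 21 in knockout EBs. The part of the liver transcripts of knockout EB library 1 in the EB count was not tested. They summed to 4921 and 5126 CPM in control ESCs, 16651 and 19612 in knockout ESCs, 5745 and 6157 in control EBs and 11173 and 12057 in knockout EBs, and none of them was at 0 in any group. The 15 trophoblast markers summed to 186 to 215 CPM in control ESCs, 281 to 292 CPM in knockout ESCs, 198 CPM in both control EB libraries and 240.3 to 259 CPM in knockout EBs, with Tpbpa at 0 counts in knockout ESCs, Elf5, Prl3d1 and Tpbpa in control EBs and Prl3d1 in knockout EBs. Of the 10 trophoblast markers tested in ESCs, 3 were higher and 1 lower. The 12 fibroblast markers summed to 54.7 to 76.2 CPM over all libraries, with Lum at 0 counts in control ESCs and both EB groups and Dpt in control ESCs. The 12 neural markers summed to 378 and 384 CPM in control ESCs, 322 and 325 in knockout ESCs, 219.7 and 201 in control EBs and 239 and 229.9 in knockout EBs, with Neurog2 at 0 in both ESC groups and Dcx in control ESCs and both EB groups. The part of these cells in the levels of the imprinted genes was not tested. In bulk RNA a change in the number of cells of a type and a change in RNA per cell cannot be told apart.

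**Figure D2:**
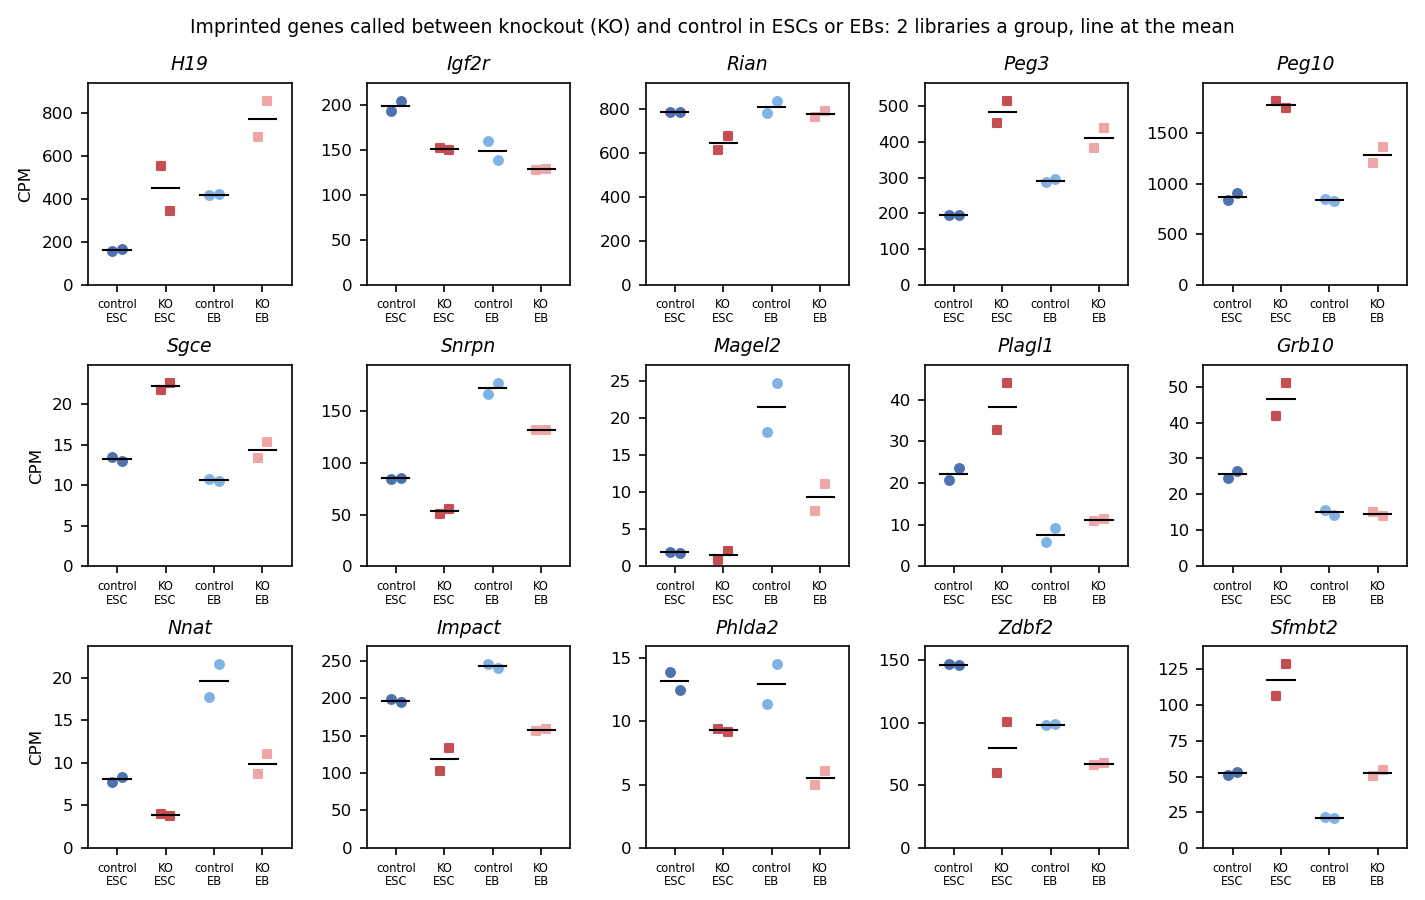
Level in CPM of the 15 genes called between knockout and control in ESCs or EBs, with 1 point per library, a line at the mean of 2 libraries, and vertical axes that start at 0. H19, Peg3, Peg10 and Sfmbt2 were called higher in knockout at both stages, and Snrpn, Nnat and Impact lower at both. Sgce and Plagl1 also lie above control at both stages, and Zdbf2, Igf2r and Phlda2 below, each called at only 1 stage. Grb10 has 41.9 and 51.0 CPM in knockout ESCs against 24.5 and 26.6 CPM in control ESCs, with overlapping EB groups.

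H19, transcribed from the maternal copy beside the growth factor gene Igf2 (chr7:142575529-142578143, minus strand, mm10), had the highest positive knockout log2 change of the called genes in ESCs. It stood at 157 and 168 CPM in control ESCs, 555 and 344 in knockout ESCs, 417 and 423 in control EBs and 689.9 and 855 in knockout EBs. Knockout libraries lay above control libraries at both stages. The lower knockout ESC value came from the library with the GC trend, whose part in this gap was not tested. The genes of the list highest in GC were Nnat (92.7 percentile), Gnas (90.1) and Magel2 (89.4). In knockout ESC libraries 1 and 2 Nnat had 3.94 and 3.78 CPM, Gnas 11.8 and 3.71, and Magel2 0.875 and 2.11. H19 lies at the 82.1 percentile of GC content among the genes tested. The ESC change was 1.47 ± 0.19 (2.76-fold, adjusted p = 0.000535) and the EB change 0.88 ± 0.18 (1.84-fold, adjusted p = 0.0180). In EBs H19 missed the threshold without control EB library 1 (adjusted p = 0.208), control EB library 2 (0.147) or knockout EB library 2 (0.0997). Igf2, the growth factor of the paternal copy, had 0 or 1 count per library. Of its exonic bases 64.5% are shared with exons of other genes, 62.8% with the gene model Gm49394, which has 0 counts in all libraries. The rule for reads in shared exons was not given in the sources used here, so the Igf2 count was not read as its RNA level.

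Peg3, a zinc finger gene of the paternal copy (chr7:6703892-6730431, minus strand), was the gene of the list with the smallest adjusted p in the ESC contrast. Its levels were 196 and 196 CPM in control ESCs, 454 and 513 in knockout ESCs, 288 and 295 in control EBs and 382 and 439 in knockout EBs. The lowest knockout library of Peg3 lay above the highest control library of either stage. The change was 1.30 ± 0.10 in ESCs (2.47-fold, adjusted p = 1.78e-05) and 0.49 ± 0.09 in EBs (1.41-fold, adjusted p = 0.0113). The difference between the stages, -0.81 ± 0.13, was itself called (adjusted p = 0.0209), the only one among the 41 (2.44%, beside 1.38% of all genes). Thus 0 of 41 were called higher, beside 127 of 17125 genes (0.742%), and 1 of 41 lower, beside 110 of 17125 (0.642%). Peg3 in EBs lost its call without control EB library 1 (adjusted p = 0.160), control EB library 2 (0.0906) or knockout EB library 2 (0.118), and the difference lost its call without either control ESC library (0.200 and 0.219), either control EB library (0.148 and 0.154) or knockout EB library 1 (0.139). The other genes of the domain stood lower and passed no knockout test. Usp29, a ubiquitin protease gene whose start faces that of Peg3 across the stretch printed above, had 3.01 to 6.20 CPM in all libraries and knockout changes of -0.02 ± 0.28 (adjusted p = 0.979) in ESCs and -0.60 ± 0.28 (adjusted p = 0.257) in EBs. Zim1, a zinc finger gene of the maternal copy, had 1.49 to 5.13 CPM and changes of -0.26 ± 0.28 (adjusted p = 0.604) and 0.83 ± 0.31 (adjusted p = 0.144).

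Peg10 (chr6:4747306-4760517, plus strand) and Sgce, which encodes the membrane protein epsilon-sarcoglycan (chr6:4674350-4747207, minus strand), are read in opposite directions from neighbouring starts of the paternal copy. Peg10 had 839 and 907 CPM in control ESCs, 1817 and 1747 in knockout ESCs, 846 and 836 in control EBs and 1209 and 1369.8 in knockout EBs. Its 2 control groups overlapped, and both knockout groups lay above them, with ESCs above EBs. The knockout change was 1.03 ± 0.08 in ESCs (2.04-fold, adjusted p = 1.95e-05) and 0.62 ± 0.08 in EBs (1.53-fold, adjusted p = 0.00118), and both calls held under every alternative tried (other scalings, filters and tools, a GC correction, and each library left out). Sgce stood at 13.4 and 13.02 CPM in control ESCs, 21.8 and 22.6 in knockout ESCs, 10.7 and 10.6 in control EBs and 13.3 and 15.3 in knockout EBs. Sgce rose in ESCs by 0.75 ± 0.16 (1.68-fold, adjusted p = 0.00941), a call lost without control ESC library 1 (0.0813) or 2 (0.112), and its value in EBs was 0.42 ± 0.16 (adjusted p = 0.152). Farther along the cluster, Ppp1r9a, the actin-binding protein neurabin, had 41.9 to 68.0 CPM and knockout changes of 0.11 ± 0.11 and 0.21 ± 0.11, neither called. Asb4 remained between 0.133 and 1.24 CPM.

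Sfmbt2, which encodes a Polycomb-related protein needed in trophoblast (chr2:10370510-10595253, plus strand), had the highest positive EB change of the called genes. Its levels were 51.3 and 53.5 CPM in control ESCs, 107 and 129 in knockout ESCs, 21.9 and 20.7 in control EBs and 50.1 and 54.8 in knockout EBs. Knockout EBs thus spanned the values of control ESCs, while control EBs lay below all other groups. The change was 1.16 ± 0.12 in ESCs (2.24-fold, adjusted p = 0.000131) and 1.30 ± 0.12 in EBs (2.46-fold, adjusted p = 0.000257), and both held under every alternative. The difference between the stages, 0.13 ± 0.17, was not called (adjusted p = 0.814).

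Plagl1 and Grb10 passed the knockout test in ESCs and not in EBs. Plagl1, a zinc finger growth regulator of the paternal copy (chr10:13060504-13131694, plus strand), had 20.8 and 23.7 CPM in control ESCs, 32.7 and 44.0 in knockout ESCs, 5.97 and 9.18 in control EBs and 10.9 and 11.4 in knockout EBs. Groups did not overlap at either stage, yet only the ESC change of 0.79 ± 0.20 passed (adjusted p = 0.0273), and it was lost without control ESC library 1 (0.234), control ESC library 2 (0.162) or knockout ESC library 2 (0.0956). The EB value of Plagl1 was 0.57 ± 0.23 (adjusted p = 0.179). Grb10, an adaptor that restrains insulin and IGF signalling, is read mainly from the maternal copy outside neurons (chr11:11930508-12038683, minus strand). It stood at 24.5 and 26.6 CPM in control ESCs, 41.9 and 51.0 in knockout ESCs, 15.8 and 14.2 in control EBs and 15.1 and 14.2 in knockout EBs. The ESC groups were apart and the EB groups overlapped. Grb10 rose in ESCs by 0.86 ± 0.14 (1.82-fold, adjusted p = 0.00233, lost without control ESC library 1 at 0.0556), and its EB value was -0.03 ± 0.15 (adjusted p = 0.926). The difference of -0.90 ± 0.21 between the stages missed the threshold (adjusted p = 0.0745) and passed it with no low-count filter (0.01001), in DESeq2 (0.0450), with the GC trend removed (0.0116), and without knockout ESC library 1 (0.00564) or 2 (0.0444). Its neighbour Ddc, an enzyme of dopamine and serotonin synthesis, had 22.6 to 40.8 CPM and knockout values of -0.32 ± 0.16 (adjusted p = 0.230) and -0.01 ± 0.17 (adjusted p = 0.988).

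The Snrpn-Ndn domain, the mouse counterpart of the Prader-Willi and Angelman region, held 2 of the genes that fell. Snrpn (chr7:59982495-60140219, minus strand) had 85.1 and 85.3 CPM in control ESCs, 51.0 and 55.8 in knockout ESCs, 167 and 178 in control EBs and 132 and 132 in knockout EBs. Both stages showed knockout below control without overlap. Snrpn fell by 0.67 ± 0.09 on the log2 scale in ESCs (to 62.7% of control, adjusted p = 0.000887), under every alternative, and by 0.38 ± 0.09 in EBs (to 76.6%, adjusted p = 0.0306). That EB result missed the threshold without control EB library 1 (adjusted p = 0.145) or 2 (0.180) and without knockout EB library 1 (0.249) or 2 (0.190). Of the exonic bases of Snrpn, 27.3% are shared with the gene model Gm38393 on the same strand, whose changes of -0.45 ± 0.20 (adjusted p = 0.169) and -0.27 ± 0.20 (adjusted p = 0.483) were not called.

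Magel2, a ubiquitin ligase regulator of the same domain (chr7:62377010-62381640, plus strand), had 1.95 and 1.84 CPM in control ESCs, 0.875 and 2.11 in knockout ESCs, 18.2 and 24.8 in control EBs and 7.53 and 11.1 in knockout EBs. ESC groups overlapped, and knockout EBs lay below control EBs. In EBs Magel2 fell by 1.20 ± 0.30 on the log2 scale (to 43.5%, adjusted p = 0.0416), a call lost when genes were kept at a mean of 1 CPM (0.0536) and without control EB library 1 (0.164) or 2 (0.257) or knockout EB library 1 (0.278) or 2 (0.0532). Its ESC value was -0.34 ± 0.42 (adjusted p = 0.654). The remaining genes of the domain were not called in either knockout contrast. Necdin (Ndn) had 6.99 to 13.3 CPM, the ring finger gene Mkrn3 4.88 to 10.3 CPM and Peg12 1.25 to 6.49 CPM. Ube3a, the ubiquitin ligase of the maternal copy in neurons, had 61.0 to 96.7 CPM with knockout values of -0.14 ± 0.12 and -0.21 ± 0.12. Snhg14, the long RNA of the paternal copy that runs antisense to Ube3a and is not among the 45, had 147 and 133 CPM in control ESCs, 74.4 and 102 in knockout ESCs, 293 and 335 in control EBs and 213 and 229.7 in knockout EBs. Its ESC change of -0.67 ± 0.14 was called (adjusted p = 0.0101; lost in the fit of only the groups compared at 0.0538 and without control ESC library 1 at 0.123 or 2 at 0.0703), and its EB value of -0.51 ± 0.14 was not (adjusted p = 0.0548). Ube3a shares 8.74% of its exonic bases with Snhg14, and without a stated strand setting reads of the 2 cannot be told apart there.

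Nnat, which encodes the membrane proteolipid neuronatin (chr2:157560078-157562522, plus strand), fell at both stages. It had 7.74 and 8.35 CPM in control ESCs, 3.94 and 3.78 in knockout ESCs, 17.7 and 21.6 in control EBs and 8.66 and 11.03 in knockout EBs. No groups overlapped between genotypes. The decrease was -1.06 ± 0.22 in ESCs (to 48.0%, adjusted p = 0.00962) and -0.99 ± 0.20 in EBs (to 50.2%, adjusted p = 0.0161). Leaving out control ESC library 1 (0.0557) or 2 (0.0959) ended the ESC call of Nnat, and leaving out control EB library 1 (0.0674), control EB library 2 (0.117) or knockout EB library 1 (0.156) ended the EB call. Blcap, the gene in whose intron Nnat lies, had 14.2 to 23.5 CPM, with values of -0.37 ± 0.16 (adjusted p = 0.154) and 0.11 ± 0.16 (adjusted p = 0.741).

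Impact (chr18:12955852-12992950, plus strand), read from the paternal copy, stood at 198 and 194 CPM in control ESCs, 103 and 133 in knockout ESCs, 245 and 240.1 in control EBs and 156 and 159 in knockout EBs. All 4 knockout libraries were below all 4 control libraries. The higher knockout ESC value came from the library with the GC trend, whose part in this gap was not tested. Impact lies at the 12.8 percentile of GC content among the genes tested. It fell by 0.73 ± 0.11 on the log2 scale in ESCs (to 60.2%, adjusted p = 0.00183), under every alternative, and by 0.62 ± 0.11 in EBs (to 64.9%, adjusted p = 0.00933), a call lost without control EB library 1 (0.124) or 2 (0.0809) or knockout EB library 1 (0.0768). Zdbf2, a zinc finger gene of the paternal copy tied to growth and feeding (chr1:63273265-63314576, plus strand), had 147 and 146 CPM in control ESCs, 59.9 and 100.4 in knockout ESCs, 98.3 and 98.8 in control EBs and 66.5 and 67.9 in knockout EBs. Its knockout ESC libraries differed widely from each other, and both were below control. The higher value came from the library with the GC trend, whose part was not tested here either. Zdbf2 lies at the 13.5 percentile of GC content. Over the alternatives its ESC change ranged from -1.29 to -0.55. Zdbf2 fell in ESCs by 0.87 ± 0.18 on the log2 scale (to 54.9%, adjusted p = 0.0101), a call lost in the fit of only the groups compared (0.0563) and without control ESC library 1 (0.0967) or 2 (0.107). The EB value of -0.55 ± 0.18 was not called (adjusted p = 0.109).

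Igf2r, the receptor that carries IGF2 to lysosomes (chr17:12682406-12769664, minus strand), had 194 and 204 CPM in control ESCs, 153 and 149.7 in knockout ESCs, 160.1 and 138 in control EBs and 128 and 129 in knockout EBs. It fell in ESCs by 0.40 ± 0.09 on the log2 scale (to 76.0%, adjusted p = 0.0189; lost in the fit of only the groups compared at 0.0797 and without control ESC library 1 at 0.0992 or 2 at 0.186), and its EB value was -0.22 ± 0.10 (adjusted p = 0.222). Airn, the antisense RNA that silences Igf2r on the paternal copy, had 0.0784 to 1.60 CPM, with knockout values of 1.56 ± 0.71 (adjusted p = 0.183) and 1.09 ± 0.78 (adjusted p = 0.474). Phlda2, which restrains placental growth and is read from the maternal copy (chr7:143501545-143503150, minus strand), had 13.9 and 12.5 CPM in control ESCs, 9.41 and 9.17 in knockout ESCs, 11.4 and 14.5 in control EBs and 4.97 and 6.09 in knockout EBs. Knockout EBs were below every other group. Phlda2 fell in EBs by 1.23 ± 0.21 on the log2 scale (to 42.8%, adjusted p = 0.00715; lost without control EB library 2 at 0.0648 or knockout EB library 1 at 0.0764), and its ESC value was -0.50 ± 0.20 (adjusted p = 0.133). Kcnq1ot1, the antisense RNA of the paternal copy in the same cluster, had 10.5 to 18.7 CPM, and its EB value of -0.62 ± 0.17 missed the threshold (adjusted p = 0.0516).

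The Dlk1-Meg3 cluster is often watched in ESC lines because its maternal non-coding RNAs can be silenced in culture. Here Meg3 (chr12:109541001-109571726, plus strand) was read in every library, with 547 and 641 CPM in control ESCs, 563 and 387 in knockout ESCs, 809.8 and 773 in control EBs and 744 and 809 in knockout EBs. Genotypes overlapped at both stages, and the knockout values were -0.32 ± 0.15 (adjusted p = 0.185) and -0.03 ± 0.15 (adjusted p = 0.944). Rian, a host of small nucleolar RNAs (chr12:109603808-109661716, plus strand), had 786 and 789 CPM in control ESCs, 616 and 679 in knockout ESCs, 784 and 837 in control EBs and 767 and 794 in knockout EBs. Rian fell in knockout ESCs by 0.28 ± 0.08 on the log2 scale (to 82.2%, adjusted p = 0.0303), the smallest called change there, lost in the fit of only the groups compared (0.168) and without control ESC library 1 (0.167) or 2 (0.193). The microRNA host Mirg had 25.3 to 49.2 CPM with knockout values of -0.18 ± 0.13 and -0.03 ± 0.13, neither called. The paternal genes were low, with 4.64 to 9.02 CPM for Dlk1, a membrane protein related to NOTCH ligands, and 5.10 to 9.52 CPM for Rtl1, a retrotransposon-derived placental gene. Neither was called in any contrast.

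**Figure D3:**
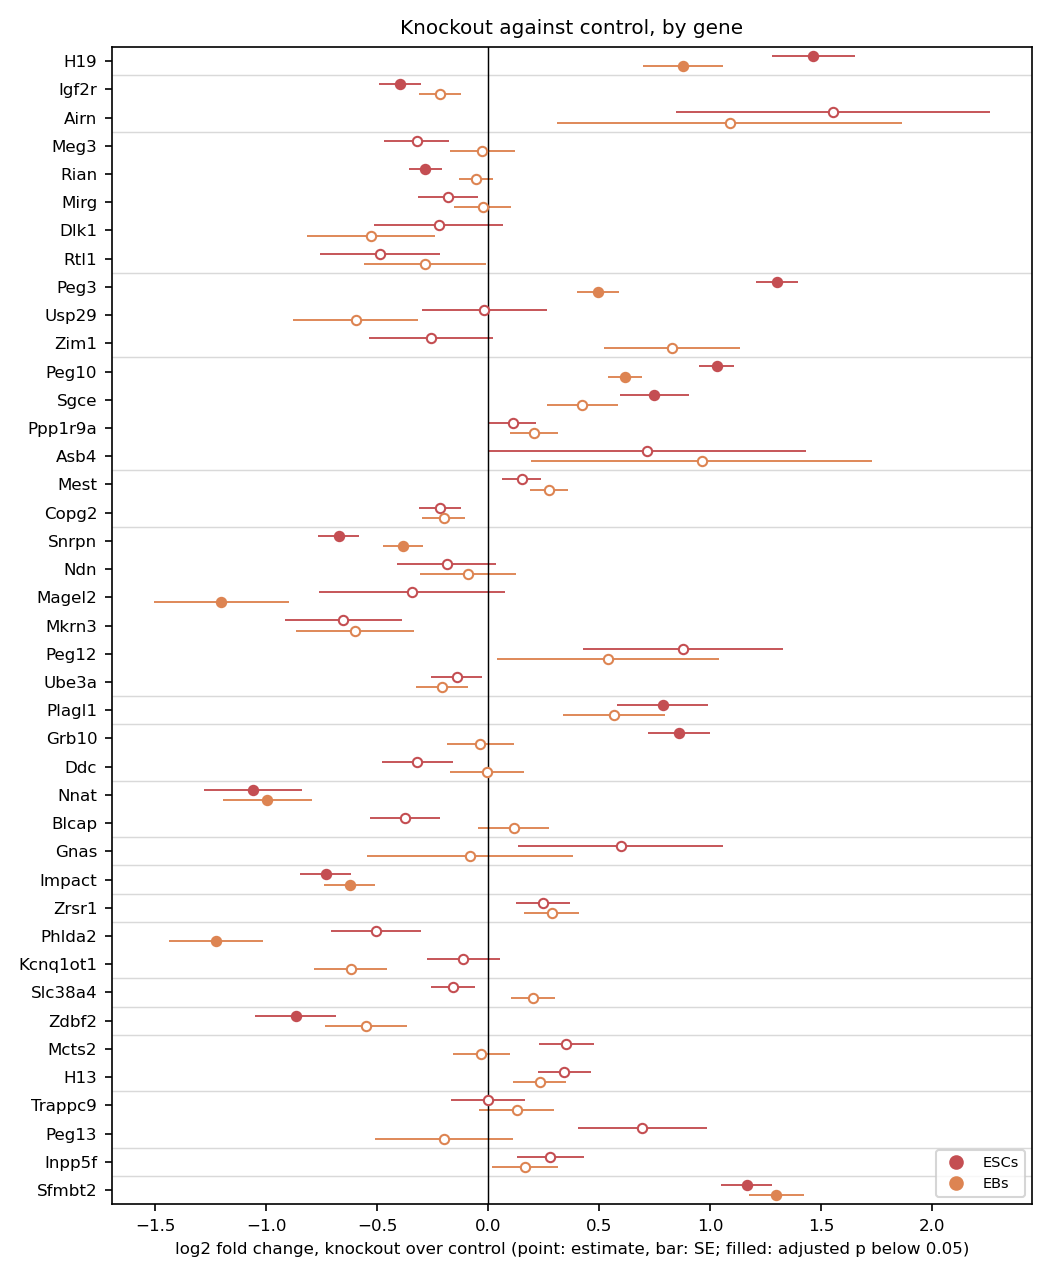
Log2 fold change of knockout over control for the 41 tested genes, ordered by cluster, with the estimate as a point and its SE as a bar, in ESCs (red) and EBs (orange); filled points passed at an adjusted p below 0.05. Filled points lie at both sides of 0, from -1.06 (Nnat) to 1.47 (H19) in ESCs and from -1.23 (Phlda2) to 1.30 (Sfmbt2) in EBs, and the bars are widest for the rarely counted Airn and Asb4.

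Of the remaining genes none passed a knockout test. Mest, an enzyme gene of the paternal copy, had 96.5 to 181 CPM and knockout values of 0.15 ± 0.09 (adjusted p = 0.304) and 0.27 ± 0.09 (adjusted p = 0.0918). Copg2, a vesicle coat subunit antisense to it, had 61.1 to 83.5 CPM, and 23.1% of the exonic bases of Mest are shared with Copg2, where the strand setting decides the assignment of reads. Slc38a4 had 188 to 267 CPM and values of -0.16 ± 0.10 and 0.20 ± 0.10; it is also expressed in liver, and its 2 knockout EB libraries, with and without liver transcripts, had 233 and 217 CPM. The splicing-factor retrogene Zrsr1 (23.4 to 36.2 CPM), Mcts2 (23.8 to 36.4 CPM), H13, a signal peptide peptidase (28.8 to 48.9 CPM), the trafficking gene Trappc9 (24.6 to 34.5 CPM) and Inpp5f, a phosphoinositide phosphatase (43.8 to 75.2 CPM), had knockout values between -0.03 and 0.35. The non-coding RNA Peg13 had 3.01 to 11.6 CPM, with values of 0.70 ± 0.29 (adjusted p = 0.149) and -0.20 ± 0.31 (adjusted p = 0.771). Gnas had 3.71 to 11.8 CPM. The locus makes several transcripts from different promoters and alleles, 21.6% of its exonic bases are shared with other genes, and the count was not read as the level of any 1 of them.

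In the main fit, more genes of the list were called between day 3 EBs and ESCs than between the genotypes. In control cells 17 of 41 were called (41.5%, beside 18.2% of all genes). Of the 41, 8 were higher in EBs, beside 1472 of all 17125 genes (8.60%), and 9 lower, beside 1649 of 17125 (9.63%). In knockout cells 19 of 41 were called (46.3%, beside 15.3% of all genes). Here 9 of 41 were higher, beside 1410 of 17125 (8.23%), and 10 of 41 lower, beside 1217 of 17125 (7.11%). The median log2 change of the 41 was -0.12 in control and -0.21 in knockout, against -0.01 and 0.00 over all genes. The 2 contrasts use different libraries from each other, but each shares its libraries with the knockout contrasts above. In the fit of only the groups compared the order of the counts differed. There the stage contrast called 4 higher and 3 lower in knockout and 11 and 11 in control. Between genotypes that fit called 7 higher and 3 lower in ESCs and 5 and 7 in EBs. The calls that held under every alternative were the same in number in both genotypes, 7 each. They were H19, Mest, Snrpn, Magel2, Plagl1, Nnat and Sfmbt2 in control and Mest, Snrpn, Magel2, Plagl1, Grb10, Nnat and Sfmbt2 in knockout.

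Magel2 had the highest stage change, at 3.49 ± 0.35 in control (11.3-fold, adjusted p = 0.000114) and 2.63 ± 0.37 in knockout (6.21-fold, adjusted p = 0.00128). Snrpn rose by 1.02 ± 0.09 in control (adjusted p = 4.88e-05) and by 1.31 ± 0.09 in knockout (adjusted p = 1.86e-05). Nnat rose by 1.28 ± 0.20 and 1.35 ± 0.22 (adjusted p = 0.00193 and 0.00306). For each of the 3 genes the EB libraries lay above the ESC libraries of the same genotype. H19 rose by 1.37 ± 0.19 in control (adjusted p = 0.000746) and by 0.78 ± 0.18 in knockout (adjusted p = 0.0174; lost in the fit of only the groups compared at 0.114 and without knockout EB library 2 at 0.110). Mest rose by 0.56 ± 0.09 and 0.68 ± 0.09 (adjusted p = 0.00190 and 0.000727). In the other direction, Plagl1 fell by 1.56 ± 0.22 and 1.78 ± 0.21 on the log2 scale (adjusted p = 0.00104 and 0.000468) and Sfmbt2 by 1.30 ± 0.12 and 1.16 ± 0.12 (adjusted p = 6.88e-05 and 0.000153). Grb10 fell by 1.66 ± 0.15 in knockout (adjusted p = 6.91e-05) and by 0.77 ± 0.15 in control (adjusted p = 0.00537; lost without control ESC library 2 at 0.0790 or control EB library 2 at 0.0613).

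Further stage changes passed in 1 genotype or lost their call when single libraries were left out. Over the alternatives the control change stayed between 0.49 and 0.60 for Mirg and between -0.54 and -0.39 for Ppp1r9a. Mirg rose in control by 0.55 ± 0.13 (adjusted p = 0.0167) and in knockout by 0.70 ± 0.13 (adjusted p = 0.00659), with the control call lost without any 1 of its 4 libraries (0.0741 to 0.174) and the knockout call lost in the fit of only the groups compared (0.0651) and without knockout EB library 1 (0.0529). Meg3 rose by 0.71 ± 0.15 in knockout (adjusted p = 0.0106; lost in the fit of only the groups compared at 0.0864 and without knockout EB library 2 at 0.0561), and its control value was 0.41 ± 0.15 (adjusted p = 0.0785). Peg3 rose by 0.57 ± 0.09 in control (adjusted p = 0.00248; 0.0530 without control ESC library 2), against -0.24 ± 0.09 in knockout (adjusted p = 0.117), the pair of values behind the called difference given above. Peg10 fell by 0.47 ± 0.08 in knockout (adjusted p = 0.00327; lost in the fit of only the groups compared at 0.0665 and without knockout EB library 1 at 0.0620), against -0.05 ± 0.08 in control (adjusted p = 0.674), and that difference, -0.41 ± 0.11, was not called (adjusted p = 0.123). Zim1 fell by 1.44 ± 0.30 in control (adjusted p = 0.00809; 0.0689 and 0.0726 without control ESC library 1 and 2, and 0.0671 without control EB library 2), and its knockout value was -0.36 ± 0.29 (adjusted p = 0.433). Ppp1r9a fell in control by 0.49 ± 0.11 (adjusted p = 0.0109) and in knockout by 0.39 ± 0.11 (adjusted p = 0.0332). The control call of Ppp1r9a was lost without any of the 4 control libraries (0.0754 to 0.115). Its knockout call was lost in the fit of only the groups compared (0.127), without knockout EB library 1 (0.172) or 2 (0.257), and without both libraries that stood apart, those with the GC trend and the liver transcripts (0.0742). Rian and Impact rose and Sgce, Ube3a, Phlda2, Mcts2 and Peg13 fell in knockout alone among the tests, with adjusted p-values from 0.0212 to 0.0407, and H13 rose and Igf2r, Ddc, Blcap and Slc38a4 fell in control alone, with adjusted p-values from 0.00823 to 0.0498. Each of these 12 calls was lost without at least 2 of the 4 libraries of its contrast, at adjusted p-values from 0.0564 to 0.272, and the 7 in knockout were lost in the fit of only the groups compared as well. None of their differences between genotypes was called.

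**Figure D4:**
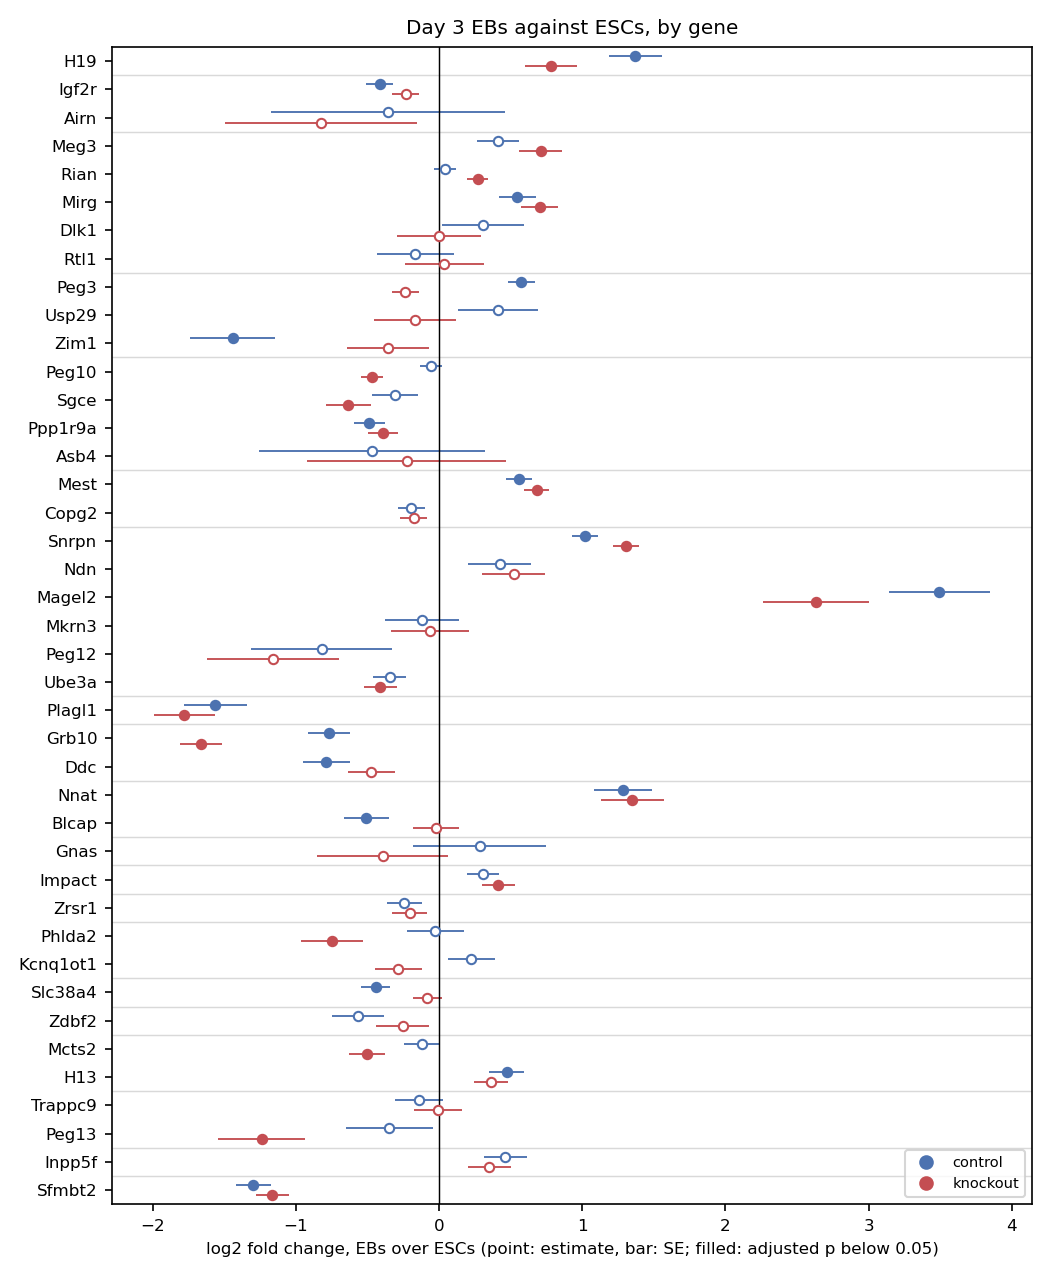
Log2 fold change of day 3 EBs over ESCs for the 41 tested genes, ordered by cluster, with the estimate as a point and its SE as a bar, in control (blue) and knockout (red); filled points passed at an adjusted p below 0.05. Magel2 lies farthest right, at 3.49 in control and 2.63 in knockout, and Plagl1 farthest left among filled points, at -1.56 and -1.78.

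Imprinted genes outside the list were read as well. Of 34 such genes 24 were tested, and 0 were higher and 1 lower in knockout ESCs (4.17%, beside 14.5% of all genes), and 1 higher and 1 lower in knockout EBs (8.33%, beside 6.80%). Atp10a, a phospholipid flippase gene near Ube3a, had 19.1 and 20.1 CPM in control ESCs, 7.51 and 5.02 in knockout ESCs, 41.7 and 41.9 in control EBs and 26.1 and 23.7 in knockout EBs. Its knockout libraries lay below control at both stages, by -1.65 ± 0.18 in ESCs (adjusted p = 0.000257) and -0.75 ± 0.16 in EBs (adjusted p = 0.0221), the latter lost without any 1 of the 4 EB libraries (0.118 to 0.185). Smoc1, a matrix protein gene, was higher in knockout EBs by 0.47 ± 0.11 (adjusted p = 0.0330), a call lost in DESeq2 (0.0536), with the replicate block (0.0542) and without any 1 of the 4 EB libraries (0.167 to 0.236).

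Among 25 factors that set or keep imprints, 24 were tested, and the core of the ZFP57 complex was not called in knockout ESCs. There ZFP57's gene, Zfp57, had a value of 0.06 ± 0.08 (adjusted p = 0.678), Trim28 -0.15 ± 0.13 (adjusted p = 0.523), Setdb1 -0.19 ± 0.08 (adjusted p = 0.164) and the maintenance methyltransferase gene Dnmt1 -0.27 ± 0.09 (adjusted p = 0.0651). In knockout ESCs 1 factor rose and 2 fell (12.5%, beside 14.5% of all genes), and in knockout EBs 1 rose and 1 fell (8.33%, beside 6.80%), shares near those of all genes. Dppa3, which protects methylation in the zygote, had 32.2 and 30.9 CPM in control ESCs, 9.55 and 13.8 in knockout ESCs, 11.9 and 14.9 in control EBs and 17.6 and 19.1 in knockout EBs. Dppa3 fell by 1.43 ± 0.19 on the log2 scale in ESCs (adjusted p = 0.000761), and its EB value was 0.46 ± 0.19 (adjusted p = 0.204). Tet2, a methylcytosine oxidase gene, fell by 0.55 ± 0.13 on the log2 scale in ESCs (adjusted p = 0.0158; lost in the fit of only the groups compared at 0.0523 and without control ESC library 1 at 0.0866 or 2 at 0.178). Dnmt3b, a de novo methyltransferase gene, had 187 and 204 CPM in control ESCs, 275 and 252 in knockout ESCs, 1261 and 1388 in control EBs and 782 and 786 in knockout EBs. It rose in knockout ESCs by 0.43 ± 0.08 (adjusted p = 0.00672; lost in the fit of only the groups compared at 0.0542 and without control ESC library 1 at 0.115) and fell in knockout EBs by 0.76 ± 0.08 on the log2 scale (adjusted p = 0.000506). Zfp57 had 369 and 357 CPM in control ESCs, 369 and 389 in knockout ESCs, 232 and 211 in control EBs and 338 and 345 in knockout EBs, and it rose in knockout EBs by 0.62 ± 0.08 (adjusted p = 0.00156). DNA methylation was not measured in these libraries.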

How the data were processed

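RNA-seq counts of 8 mouse R1 libraries, 2 for each of 4 groups taken from the labels, were analysed. Per the file headers, the authors deposited raw counts, whole numbers for each gene and library with no normalization, beside gene coordinates and exonic length. Per the submitters' processing notes, HISAT2, featureCounts, DESeq2 and the mm10 build were used. Versions, strand setting and the treatment of reads in shared exons were not given in the sources used here.

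Genes were kept by edgeR's filterByExpr (17125 of 55401) and scaled with TMM factors. The main model was edgeR's quasi-likelihood fit of the 4 group means over the 8 libraries; Benjamini-Hochberg adjustment ran over all genes tested, and a gene was called at an adjusted p below 0.05. SE is the absolute log2 change over the square root of F. CPM and RPKM were computed from the counts, the TMM sizes and the deposited length. Genes of the list with under 10 counts were dropped. Named genes were Zfp462, every kept gene of the list, and up to 4 called genes of each other list with the smallest adjusted p in the knockout contrasts. Genes that share exons with a gene of the list, the factors without a call, and Snhg14 were named in addition. The members and lists were chosen with earlier results of these data known. Usual expressed alleles are textbook knowledge.

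Alternatives were median-of-ratios factors, library totals, no filter or a mean of at least 1 CPM, a replicate block, only the groups compared, DESeq2, the GC trend removed, and each library left out. Leaving out both libraries that stood apart was added after seeing the data. Leaving out 1 library leaves a group of 1, whose spread is assumed to be that of the other groups. Over all genes, too, leaving out 1 control or EB library lowered the number of calls in the contrasts that used it, and leaving out either knockout ESC library raised it. A call lost without a control or EB library is therefore not particular to its gene. In the fit of only the groups compared, knockout ESCs had 951 genes higher and 407 lower of 16172. Knockout EBs had 1449 higher and 1271 lower of 16002. The main fit had 1421 and 1062 in ESCs and 814 and 350 in EBs. The counts of calls thus depend on which groups enter the fit. The procedure was tested on simulated data. Versions were R 4.3.3, edgeR 4.0.16 and DESeq2 1.42.0.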

Additional observations from a re-analysis of the deposited data

Results flagged for a closer look

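Among the imprinted genes and the factors that set or keep imprints, the knockout effect differed between EBs and ESCs for 5 genes. The test was that of the difference itself (edgeR's quasi-likelihood test with Benjamini-Hochberg adjustment over all 17125 genes). It called 237 of all 17125 genes (1.38%). Of the 41 genes of the list 1 was called (2.44%), and of the 24 other imprinted genes 0. Of the 24 factors tested, 3 were called higher and 1 lower (16.7%). Cell-type markers are not in this count, and 9 of 23 extraembryonic endoderm markers were called lower. Peg3 had a difference of -0.81 (adjusted p = 0.0209), with a larger rise in ESCs than in EBs. Dnmt3b had -1.19 (adjusted p = 0.00360), up in knockout ESCs and down in knockout EBs, and lost its call without control ESC library 1 (0.0960), control ESC library 2 (0.0821) or control EB library 2 (0.0710). Dppa3 had 1.89 (adjusted p = 0.0129), which was lost without either control ESC library (0.161 and 0.150), either control EB library (0.121 and 0.0851) or knockout EB library 1 (0.0562). Tet2 had 0.88 (adjusted p = 0.0476) and Zfp57 had 0.56 (adjusted p = 0.0457). Both of the latter calls were lost with median-of-ratios factors (0.0540 and 0.0549), with a mean of at least 1 CPM (0.0673 and 0.0611) and with the replicate block (0.0760 and 0.0736). Among leave-outs, Tet2 and Zfp57 were lost without any 1 of the 4 control libraries or 2 knockout EB libraries, at adjusted p-values from 0.116 to 0.355. Groups of 2 libraries allow no test for a library far from its group.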

How the results depend on the processing

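No called change of a tested gene of the list reversed under any alternative. Of the 59 calls over 5 contrasts, 59 were kept with the GC trend removed, 58 with median-of-ratios factors, library totals or no filter, 57 with DESeq2 or a mean of at least 1 CPM, and 43 of 58 in the fit of only the groups compared. Without both the library with the GC trend and that with liver transcripts, 53 were kept. Held under every alternative that used their libraries were 6 of 13 calls in knockout ESCs, 2 of 9 in knockout EBs, 7 of 17 and 7 of 19 by stage in control and knockout, and 0 of 1 for the difference.

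Counts that moved by over 1.5 times were these. In the fit of only the groups compared, 3 members were lower in knockout ESCs, and 4 were higher and 3 lower by stage in knockout. With the GC trend removed, 9 were lower in knockout EBs. For the difference, 4 were lower with no filter, 2 with DESeq2, 4 with the GC trend removed, and 3 higher and 3 lower without both libraries that stood apart, which also left 4 lower by stage in knockout. With 1 library left out, the counts ranged from 4 to 9 higher and 2 to 10 lower in knockout ESCs, 2 to 6 and 0 to 7 in knockout EBs, 5 to 11 and 2 to 12 by stage in control, 5 to 11 and 3 to 14 by stage in knockout, and 0 to 4 in either direction for the difference. The count of 0 lower in knockout EBs came without control EB library 2 or knockout EB library 1. The causes of these moves were not tested. Leaving out a library outside a contrast, which bears on that contrast through the shared spread and the filter, ended 15 of the calls (adjusted p from 0.0502 to 0.115), all of them calls that a setting within their own contrast also ended.

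Same-numbered libraries did not deviate together (correlations from -0.06 to 0.04 over 11688 genes), so the numbers were not read as pairs. With the replicate number as a block the counts by direction were unchanged in the knockout contrasts (7 and 6 in ESCs, 4 and 5 in EBs) and 56 calls were kept; Blcap (0.0528) by stage in control and Ube3a (0.0519) and Phlda2 (0.0504) by stage in knockout were lost. Scalings moved the median of all genes by -0.05 to 0.03 on the log2 scale. Depth limits the genes under about 10 CPM, such as Airn and Asb4, whose SE was 0.67 to 0.82 in the contrasts of 2 groups.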
